A study of Arabidopsis thaliana with 4 samples.

Results

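A set of 134 genes had a lower transcript level in roots of the Arabidopsis thaliana mutant nai1-1 than in roots of wild-type Col-0 on every one of 4 two-colour arrays, and carried none of the names that a list of exclusions set aside. Members were single-gene probes with a log2 ratio of nai1-1 over Col-0 of -0.6 or less (at least 1.52-fold lower) on all 4 arrays and no exact 0. Of 9247 single-gene probes without an exact 0, 167 met these values (1.81%). Of the 167, 33 were set aside by a symbol or synonym, among them 6 jacalin-related lectins (JAL), PYK10, and genes named for NAI, methionine sulfoxide reductases (MSRB), calmodulin-like proteins (CML), plant U-box proteins (PUB), ZAT zinc fingers, WRKY and bHLH factors and expansins (EXP), together with listed transporters, enzymes and single loci. A gene without such a symbol or synonym in the RefSeq table stayed in, so some members belong to the same protein families. Members were chosen by the genotype ratios of these same 4 arrays, so their ratios are a description and carry no test.

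nai1-1 is a mutant deficient in ER bodies, the spindle-shaped compartments of the endoplasmic reticulum that Brassicaceae fill with beta-glucosidases. Their formation needs NAI1, a transcription factor of the bHLH family. Both genotypes were 20 days old, grew untreated at 22 °C in continuous light on plates of MS medium with 1% sucrose and 0.5% gellan gum, and shared a plate. RNA was pooled from 3 plants per genotype, and both genotypes were hybridised to each array, with the mutant in Cy5 on arrays 2 and 3 and the dyes swapped on arrays 1 and 4. The labels number the arrays as replicates without saying whether they came from separate pools, so the spread between them may be technical. nai1-1 was the only mutant line, with no second allele or complemented line among these samples. Whole roots were extracted, so fewer cells of a type and less RNA per cell cannot be told apart.

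Which genotype is higher was read from the labelled dyes, taking a deposited ratio as Cy5 over Cy3, the usual form of this software's output. Under the opposite convention all 134 members would be higher in nai1-1. The mirror rule, 0.6 or more on all 4 arrays, was met by 15 of the 9247 probes (0.162%). Among 12312 probes with no exact 0 and no single named gene, 168 met the lower rule (1.36%), and these are not described here. Over all 9247 probes the median of the mean ratios was 0.02, and the spread of the arrays, as median absolute deviation, was 0.262, 0.224, 0.155 and 0.125 in array order. Only ratios were analysed here, so transcript levels, and the identity of the tissue from absolute marker levels, could not be checked. Shoot markers had ratios near 0: of 12 listed genes 4 were measured (LHCB4.1, PSAE-1, RCA and SBPASE), with a median of -0.11. In the limma fit on all 22575 probes 0 of these 4 were called, where 0.483% of probes were called lower and 0.0133% higher, and so small a list could hardly hold a call. Of the 4 root hair markers the 2 expansins EXPA7 and EXPA18 were measured, at 0.59 and 0.38. Neither was called in that fit, while without the probes with an exact 0 limma called EXPA7 higher (adjusted p = 0.0357), where 0.617% of probes were called higher. Of the 5 endodermis markers GSO1 was measured, at 0.20. No root stele or root cap marker had a named probe, so a part of these cell types in the result was not tested.

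Plant roots answer touch, wounding and microbial molecules with calcium signals, kinase cascades and fast induction of transcription factors, and with jasmonate, a lipid hormone made from OPC-8:0 and related precursors. Intracellular receptors with TIR, nucleotide-binding and leucine-rich repeat domains recognise pathogen proteins. MATH-domain proteins carry the meprin and TRAF homology fold, which binds other proteins.

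The 134 members had a median mean ratio of -1.18, with means from -3.10 (AT2G25460) to -0.68 (AT2G29670). Their medians on arrays 1 to 4 were -1.0, -1.25, -1.22 and -1.28. Of the members, 98 were at least 2-fold lower by their mean, 9 at least 4-fold and 1 at least 8-fold, and 49 were at least 2-fold lower on every array. The 4 array medians had an SD of 0.125. Array 1 gave the highest, that is the weakest, of the 4 values for 73 members. It gave the lowest value for 14 members, against 48, 24 and 49 for arrays 2, 3 and 4. Array 1 also had the widest spread over the single-gene probes (median absolute deviation 0.262). A link between that spread and these counts was not tested. The same counts over all single-gene probes were not made.

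The lowest mean belonged to AT2G25460, with ratios of -2.19, -2.36, -3.92 and -3.92 on arrays 1 to 4 and a mean of -3.10 ± 0.95 (SD, n = 4), which is 8.55-fold. AT5G52020, an AP2/ERF transcription factor gene, had -2.47, -2.34, -3.45 and -3.65, with a mean of -2.98 ± 0.67. In both genes arrays 3 and 4 lay below arrays 1 and 2 without overlap. AT3G01830, which encodes a calcium-binding EF-hand protein, was at -2.0, -1.87, -3.42 and -3.62 (mean -2.73 ± 0.92). AT1G20310 had -2.58, -2.36, -2.37 and -2.99 (mean -2.57 ± 0.30). Its values on arrays 3 and 4 overlapped with those on arrays 1 and 2.

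AT5G58680, a gene for a protein of armadillo (ARM) repeats, was at -1.89, -1.40, -2.83 and -2.90 (mean -2.25 ± 0.74). AT2G32140, a TIR-domain gene, was at -2.04, -2.08, -2.18 and -2.35 (mean -2.16 ± 0.14), and the MATH-domain gene AT3G20370 at -2.12, -2.03, -2.23 and -2.0 (mean -2.09 ± 0.10). These last 2 were among the members that all arrays placed at nearly the same ratio. AT4G29780 had -0.85, -1.35, -2.91 and -3.04 (mean -2.04 ± 1.10), the widest range of all members at 2.19. AT3G19680 was at -1.45, -1.61, -2.58 and -2.47 (mean -2.03 ± 0.58).

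AT5G38020, a gene of the SABATH methyltransferases, which methylate small acids such as plant hormones, was at -1.76, -2.23, -1.97 and -1.99 (mean -1.99 ± 0.19). GRX480 (AT1G28480), a glutaredoxin that binds TGA transcription factors and restrains jasmonate-responsive transcription, was at -1.40, -1.43, -2.39 and -2.70 (mean -1.98 ± 0.67). AT3G59340, a solute carrier-like membrane protein gene, was at -2.18, -2.28, -1.68 and -1.69 (mean -1.96 ± 0.32), with arrays 1 and 2 the lower pair. AT1G14120, a gene of the 2-oxoglutarate-dependent dioxygenases, was at -1.88, -2.05, -1.90 and -1.95 (mean -1.94 ± 0.07). AT1G74450 was at -1.29, -1.39, -2.24 and -2.69 (mean -1.90 ± 0.68), and AT1G78280 at -1.45, -2.12, -2.07 and -1.88 (mean -1.88 ± 0.31). Of these 15 members, 14 were at least 2-fold lower on every array, AT4G29780 being the exception through array 1.

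**Figure D1:**
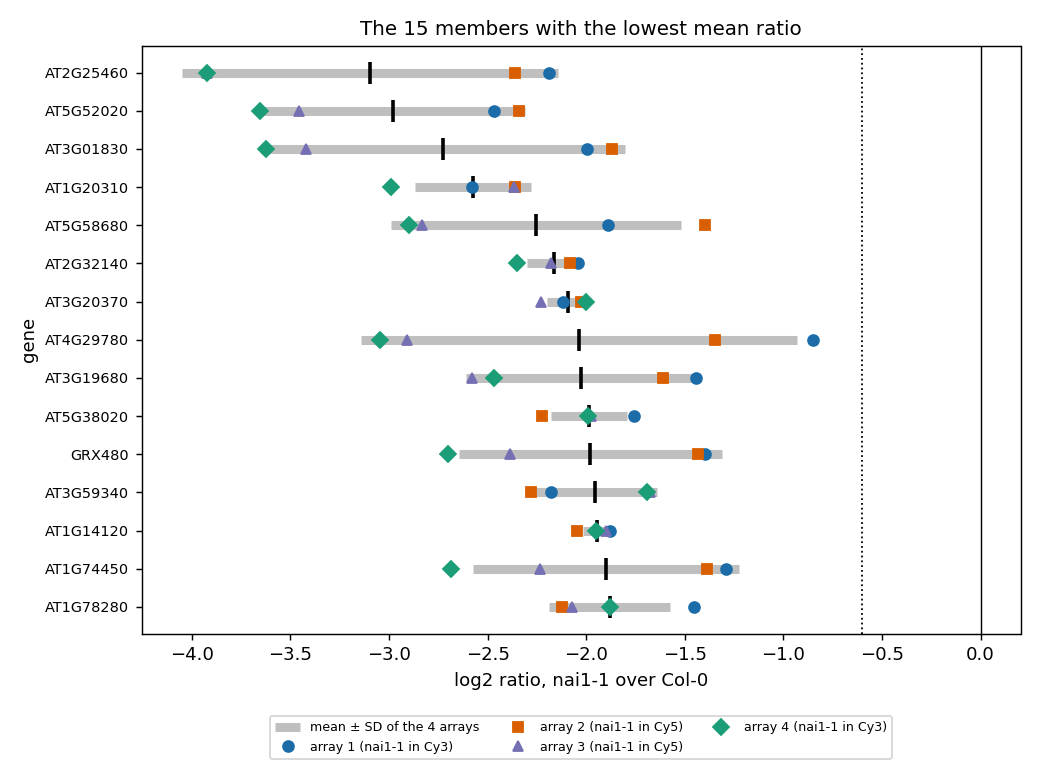
Log2 ratios of nai1-1 over Col-0 (x axis) for the 15 members with the lowest mean (y axis). Points are the 4 arrays, the vertical tick is their mean, the grey bar is the mean ± SD, and the dotted line marks -0.6; AT2G25460, AT5G52020 and AT3G01830 have arrays 3 and 4 apart from arrays 1 and 2, while AT2G32140, AT3G20370 and AT1G14120 have all 4 arrays close together.

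From general knowledge of the loci, 87 members were placed in 10 protein family groups and 47 were not grouped. The groups were made after the members were known, so their counts are descriptions. Group medians ran from -1.61 for the MATH-domain genes to -1.11 for secreted, lipid-binding and cell surface proteins and for kinases and other signalling proteins, a spread smaller than the range among the members of each group.

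**Figure D2:**
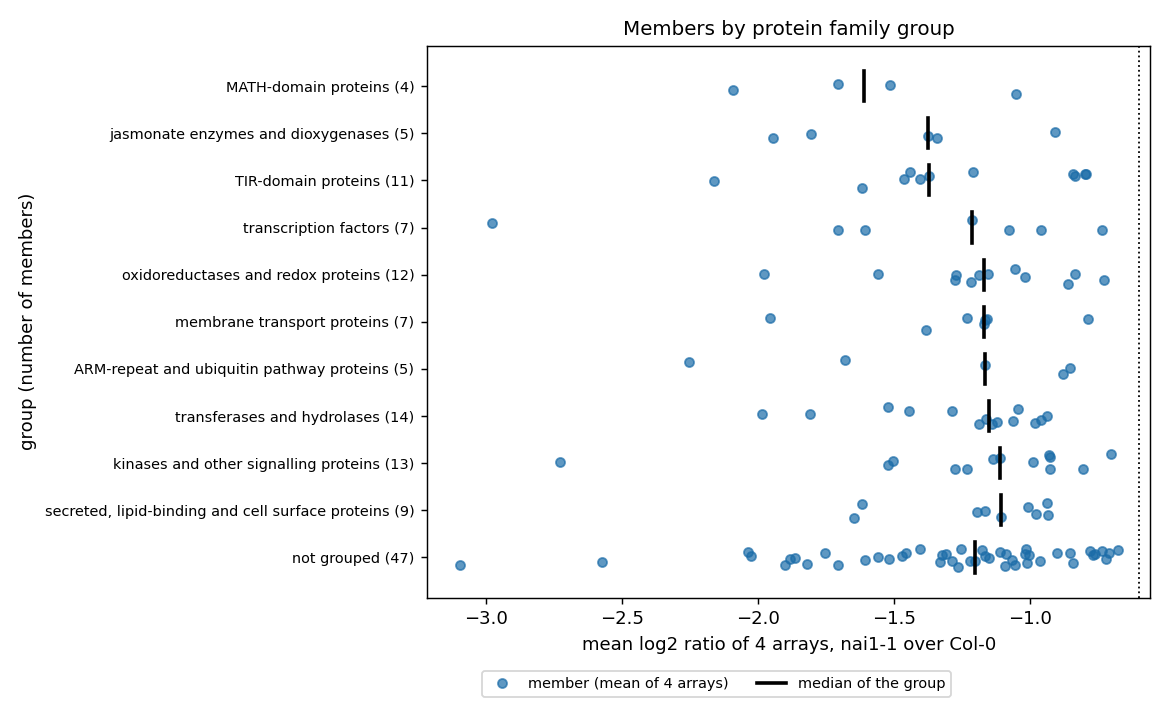
Mean log2 ratio of 4 arrays (x axis) for each of the 134 members, by protein family group with the number of members in brackets (y axis). Each point is a gene, the black tick is the group median, points are spread vertically at random within a group, and the dotted line marks -0.6; the 4 MATH-domain genes have the lowest median (-1.61) and the ranges of all groups overlap.

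The TIR-domain group held 11 genes, 7 of them TIR-NBS-LRR genes, at means from -2.16 to -0.79 and a median of -1.37. After AT2G32140, the lowest was AT5G41750, a TIR-NBS-LRR gene, at -0.73, -1.87, -1.84 and -2.02 (mean -1.62 ± 0.59). Array 1 gave it a much weaker ratio than the other arrays. Its neighbour AT5G41740, also a TIR-NBS-LRR gene, was at -1.21, -1.61, -1.22 and -1.58 (mean -1.41 ± 0.22) and showed no such gap. AT5G58120 (mean -1.46), AT1G63750 (-1.44), AT4G19510 (-1.37), AT5G22690 (-1.21) and AT5G38350 (-0.84) encode proteins of the same domain order. AT1G66090 (-0.83), AT1G72940 (-0.80) and AT2G20142 (-0.79) are shorter TIR genes and lay at the weak end of the group, close to the TIR-NBS-LRR gene AT5G38350. The lowest gene of the group, AT2G32140, was not placed with the TIR-NBS-LRR genes either.

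The 4 MATH-domain genes were AT3G20370, described above, and 3 genes that lie within a few genes of each other on chromosome 5. AT5G26260 was at -1.31, -2.09, -1.54 and -1.89 (mean -1.71 ± 0.35). AT5G26290 was at -1.50, -1.57, -1.22 and -1.77 (mean -1.52 ± 0.23), and AT5G26280 at -0.95, -1.37, -0.99 and -0.89 (mean -1.05 ± 0.21). In each of the 4 genes the values of arrays 3 and 4 overlapped with those of arrays 1 and 2. On either side of the cluster, AT5G26250 was at -0.09 and UGT72E3 (AT5G26310) at 0.08.

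**Figure D3:**
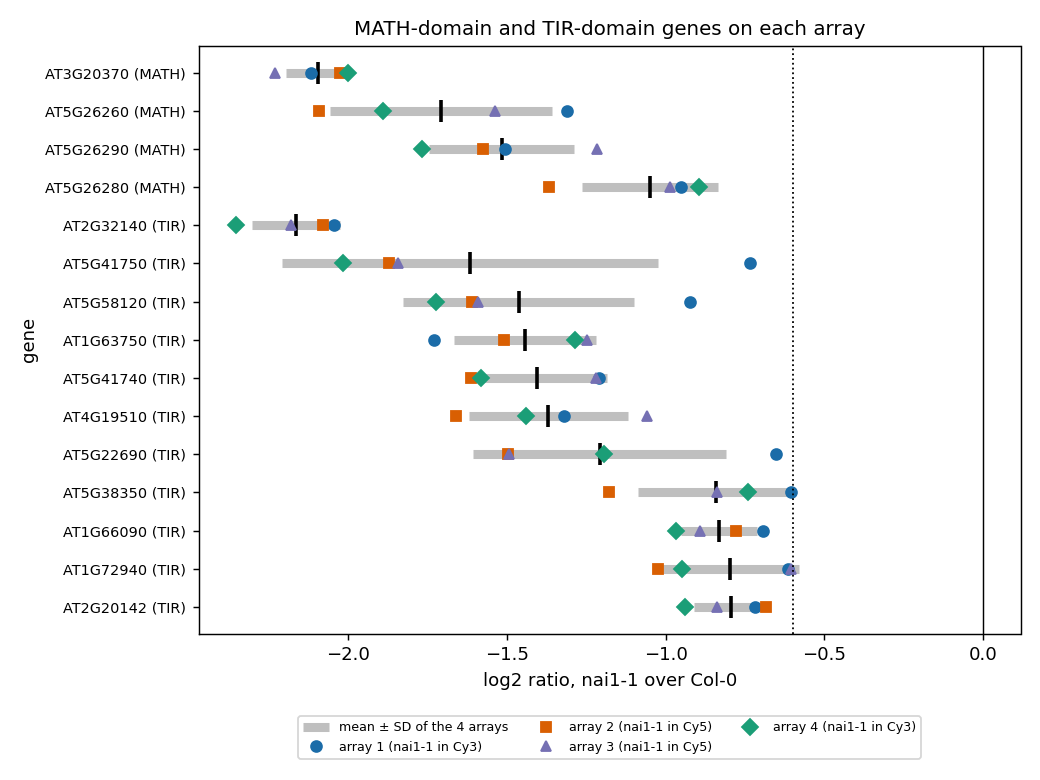
Log2 ratios of nai1-1 over Col-0 (x axis) of the 4 MATH-domain and 11 TIR-domain members (y axis) on each of 4 arrays (points), with the mean (tick), mean ± SD (grey bar) and the -0.6 threshold (dotted line). Array 1 stands apart from the other 3 arrays in AT5G41750 and AT5G58120, at -0.73 and -0.92.

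Kinases and other signalling proteins made up 13 members, with a median of -1.11. After the EF-hand gene AT3G01830, the next was AT2G34930, a leucine-rich repeat gene, at -0.77, -1.28, -2.11 and -1.94 (mean -1.52 ± 0.62). AT1G11960, of a family of membrane proteins that includes osmosensitive calcium channels, had a mean of -1.50 ± 0.35. A second EF-hand gene, AT4G27280, was at -0.65, -0.75, -1.47 and -1.66 (mean -1.14 ± 0.50). The 2 leucine-rich repeat receptor kinase genes AT5G25930 and AT3G47570 had means of -1.23 and -0.93. Another 5 protein kinase genes lay between -1.28 (AT4G25390) and -0.81 (AT5G25440), with AT1G72540, AT2G39110 and AT3G46930 between them. The leucine-rich repeat gene AT1G33600 was at -1.11, and the phosphatase gene AT4G28400, a protein phosphatase of type 2C that removes phosphate from serine and threonine, at -0.70.

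Among 7 transcription factor genes, 4 encode AP2/ERF proteins, the family of ethylene response factors. After AT5G52020 came ORA47 (AT1G74930), a regulator of jasmonate and abscisic acid synthesis, at -1.14, -1.21, -2.14 and -2.33 (mean -1.70 ± 0.62). AT4G32800 and AT5G07580, the other AP2/ERF genes, had means of -1.21 and -0.73. The zinc finger gene AT3G46080 had a mean of -1.61 ± 0.22, the MYB-like gene AT3G16350 of -1.08 and the trihelix gene AT5G01380 of -0.96.

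Of the enzymes near jasmonate, OPCL1 (AT1G20510), which activates OPC-8:0 with coenzyme A on the way to jasmonic acid, was at -0.87, -1.25, -2.63 and -2.45 (mean -1.80 ± 0.87). The 2-oxoglutarate dioxygenase genes AT2G38240 and AT5G05600, whose enzymes hydroxylate and so inactivate jasmonic acid, had means of -1.37 ± 0.33 and -0.91 ± 0.13. AT2G38240 was at -1.59, -1.70, -1.0 and -1.20, so its lower pair was arrays 1 and 2, the reverse of OPCL1. Another dioxygenase gene, AT1G06620, had a mean of -1.34. In a list of 20 jasmonate synthesis, signalling and response genes, 3 were measured. The limma fit on all probes called 0 of them, which at the shares called over all probes (0.483% lower, 0.0133% higher) says little: PDF1.2 was at -0.11, THI2.1 at -0.09 and JMT at -0.11. Each of these 3 had positive and negative arrays.

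The oxidoreductases and redox proteins numbered 12 (median -1.17). After GRX480 came AT1G09510, of the cinnamyl-alcohol dehydrogenase-like family, at -1.70, -1.77, -1.19 and -1.56 (mean -1.56 ± 0.26), while its neighbour and relative AT1G09500 was at -0.60, -1.23, -0.74 and -0.75 (mean -0.83 ± 0.28). The values of these neighbours did not overlap except where array 2 of AT1G09500 passed array 3 of AT1G09510. The 3 class III peroxidase genes, for secreted enzymes that use hydrogen peroxide at the cell wall, were AT5G19890 (-1.28), AT5G39580 (-1.02) and AT5G64120 (-0.73). AT5G38710, a proline dehydrogenase gene, had a mean of -1.27 ± 0.08 and HEMA2 (AT1G09940), a glutamyl-tRNA reductase of haem and chlorophyll synthesis, -1.22 ± 0.36. The berberine bridge enzyme-like genes AT5G44360 and AT4G20860 were at -1.19 and -1.15. AT4G30470, of a reductase family, was at -1.05 and the thioredoxin-like AT4G12170 at -0.86.

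ARM-repeat and ubiquitin pathway genes numbered 5. After AT5G58680 came AT3G02840, at -0.86, -1.03, -2.31 and -2.53 (mean -1.68 ± 0.86). AT1G24330, with a U-box of ubiquitin ligases, was at -1.17, AT5G50900 at -0.88 and the RING finger gene AT2G42350 at -0.85.

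The 7 membrane transport genes had a median of -1.17. After AT3G59340 came AT1G35350, of the PHO1-like family that includes a phosphate exporter, at -1.18, -1.96, -1.23 and -1.15 (mean -1.38 ± 0.39), where array 2 was lower than the other 3 arrays. Its relative AT2G03240 was at -1.17. AT5G65380 and AT1G11670, both genes for MATE efflux carriers, were at -1.23 and -1.16, the magnesium transporter-like AT2G21120 at -1.16, and AT5G55290, a subunit of the vacuolar proton pump, at -0.78.

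In the 14 transferases and hydrolases (median -1.15), AT2G41640, a glycosyltransferase gene, followed AT5G38020 at -1.13, -1.47, -2.24 and -2.39 (mean -1.81 ± 0.60). The beta-glucanase-like AT2G27500 had a mean of -1.52 and the aspartyl protease-like AT5G19110 of -1.44. The other 10 lay between -1.28 (AT3G54150, a methyltransferase) and -0.94 (AT2G39420, a hydrolase), among them the metalloprotease gene AT1G24140 at -1.04 and the GDSL lipase gene AT1G28600 at -0.96. Of 9 genes for secreted, lipid-binding and cell surface proteins, AT4G22610, a lipid-transfer protein-like gene, was lowest at -1.49, -1.38, -1.65 and -2.06 (mean -1.65 ± 0.30). AT2G27080, related to the NDR1 and HIN1 defence proteins, was at -0.79, -1.17, -1.86 and -2.64 (mean -1.62 ± 0.81), and its relative AT1G17620 had a mean of -1.11. AT4G39670 (-1.19), AT2G43530 (-1.17), EXO (AT4G08950, -1.01), AT1G52100 (-0.98), AT3G05950 (-0.94) and AT1G14780 (-0.93) completed the group. EXO responds to brassinosteroids and promotes growth, and AT1G52100 is a jacalin-related lectin gene that carries no JAL symbol in the gene table.

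The 47 members outside these groups included the lowest of all, AT2G25460, as well as AT1G20310, AT4G29780, AT3G19680, AT1G74450 and AT1G78280, and 36 of the 47 were at least 2-fold lower by their mean. AT1G56660, AT1G18290 and AT2G32130 had means of -1.86, -1.82 and -1.75. The remaining 38 had means from -1.71 (AT1G76600) to -0.68 (AT2G29670).

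The members with the narrowest range over the 4 arrays were AT5G13200, a GRAM-domain gene (range 0.106, mean -1.15), AT2G29670 (range 0.123) and AT5G14730 (range 0.136, mean -1.20). The widest were AT4G29780 (2.19), AT2G27080 (1.85) and OPCL1 (1.76). Just inside the threshold were AT2G29670, whose highest ratio was -0.601, and AT1G09500, AT5G38350, AT4G28400 and AT1G72940, each at -0.605. Just outside were AT1G22510 at -0.598, AT1G23850 and AT1G52565 at -0.595 and AT2G16660 at -0.591, with means between -1.11 and -0.76. The values ran on without a gap across the threshold.

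Many members with a wide range were low on arrays 3 and 4. The mean of arrays 3 and 4 lay more than 0.5 below the mean of arrays 1 and 2 in 31 of 134 members (23.1%), against 6.54% of all 9247 single-gene probes without an exact 0. It lay more than 0.5 above in 6 members (4.48%), against 4.12% of all, and in the other 97 members the pairs were within 0.5. Among the 33 probes excluded by name the share lower by over 0.5 was 9 of 33 (27.3%). Both sets were chosen by low ratios on these same arrays, so these shares can be shaped by the rule. How far they were was not tested, and no trait of the members is read from them. The largest differences were those of AT4G29780 (-1.88), AT2G25460 (-1.65), AT3G01830 (-1.59), OPCL1 and AT3G02840 (both -1.48), AT4G24380 (-1.33) and AT2G27080 (-1.27). The members lower on arrays 1 and 2 by over 0.5 were AT5G43520 (0.71), AT1G33600 (0.64), AT2G43530 (0.62), AT1G29290 and AT2G38240 (both 0.55) and AT3G59340 (0.54). By group, the members lower on arrays 3 and 4 by over 0.5 were 0 of 4 MATH-domain, 0 of 7 transport, 1 of 11 TIR-domain, 1 of 5 jasmonate and dioxygenase and 2 of 12 redox genes. They were 2 of 9 secreted and cell surface, 2 of 7 transcription factor, 2 of 5 ARM-repeat and ubiquitin, 4 of 14 transferase and hydrolase, 4 of 13 signalling and 13 of 47 ungrouped genes. Differences between these groups were not tested. The labels attach nothing to arrays 1 and 2 as against arrays 3 and 4, so plants and array processing cannot be told apart here.

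**Figure D4:**
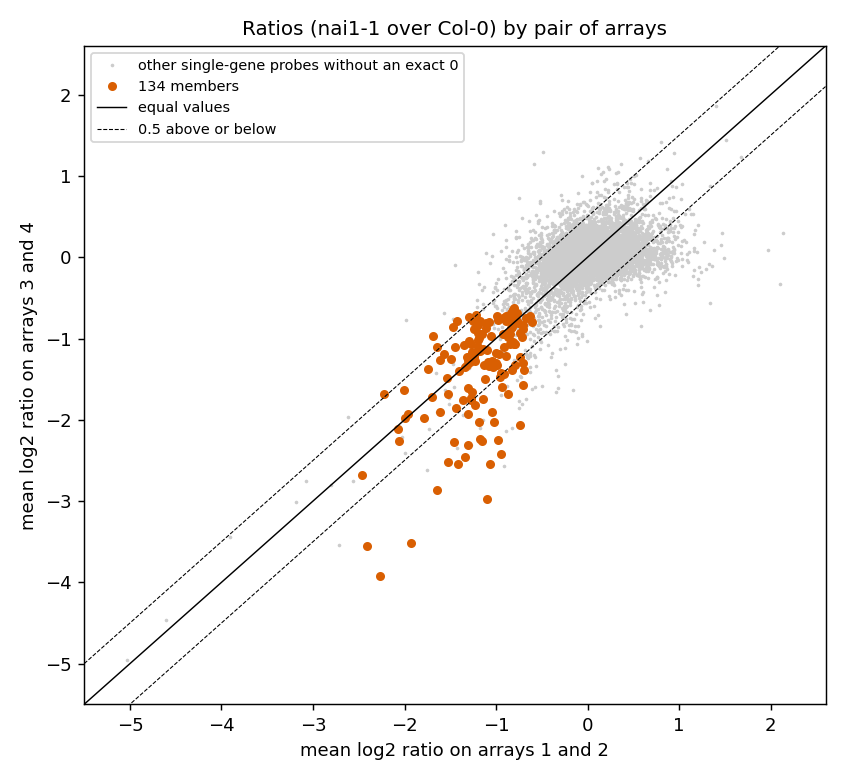
Mean log2 ratio of nai1-1 over Col-0 on arrays 1 and 2 (x axis) against arrays 3 and 4 (y axis) for the 134 members (orange) and the other single-gene probes without an exact 0 (grey). The solid line marks equal values and the dashed lines a difference of 0.5; 31 members lie below the lower dashed line and 6 above the upper one.

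Across the 134 members the ratios of arrays 3 and 4 had a Pearson r of 0.94 and those of arrays 1 and 2 of 0.72, while the other 4 pairs of arrays lay between 0.52 and 0.53. Over all 9247 probes arrays 3 and 4 again had the highest r, at 0.76. Array 4 reached 0.54 with array 2 and 0.51 with array 1, and array 3 reached 0.51 with array 2 and 0.33 with array 1. Arrays 1 and 2 had an r of 0.39, below 4 of the other pairs, so they did not stand as a pair over all probes. These correlations run across genes, which are not independent and share the arrays, and the rule truncates the members' values. The half-difference between arrays with nai1-1 in Cy5 and in Cy3 ran from -0.29 to 0.21 over the members, with a median of -0.03. It exceeded 0.5 in size in 0 of 134 members, against 0.465% of all single-gene probes without an exact 0. The dye term of the limma fit was called in 0 members on all probes, where it was called in 0% of probes, and in 0 members without exact 0 values, where it was called in 1.2%. In the fit on all probes the dye term had an unadjusted p under 0.05 in 0 of 134 members, against 5.39% of probes. A low ratio on every array leaves out genes whose dye effect is large beside their mean ratio, so the rule can shape these counts. How far it did was not tested, and nothing is read from them.

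Genes known for fast induction by touch, wounding or microbial molecules were followed through a list of 40, of which 9 were measured. All 9 were below 0 on every array, with a median of -1.65 against 0.02 over all single-gene probes without an exact 0. Of the 9, ORA47 is a member and 5 met the same values but were excluded by name (CML37, CML38, STZ, PUB22 and PUB23), so the ratios of these 6 carry no test. The 3 that did not meet the values were WRKY53 at -1.31, AT2G30020, a protein phosphatase of type 2C, at -1.52, and PUB24 at -0.50. WRKY53 and AT2G30020 missed the threshold of -0.6 on array 1 alone, at -0.598 and -0.385, WRKY53 by very little. In the limma fit on all probes, which called 0.483% of them lower, none of these 3 was called (adjusted p = 0.18, 0.193 and 0.134), although all 3 had an unadjusted p under 0.05. Without the 1016 probes with an exact 0, where 2.99% of probes were called lower, limma called WRKY53 (adjusted p = 0.0334) and AT2G30020 (adjusted p = 0.035) and not PUB24 (adjusted p = 0.0642). The list's medians were -0.98 and -1.40 on arrays 1 and 2 and -2.12 and -2.16 on arrays 3 and 4. Of the 9, 8 were lower on arrays 3 and 4 by over 0.5, against 6.54% of all single-gene probes without an exact 0. Since 6 of the 9 met the rule's values on these same arrays, nothing is read from these medians or from the 8 of 9. That the list is low was known from earlier work on these arrays, so its count is no independent evidence. The lists for ethylene and for salicylate and defence had 1 measured gene each, EIN3 at 0.01 and WRKY53.

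Position on the genome was not used by the rule. Members were spread over all 5 chromosomes, with 31.3% on chromosome 1 against 27.2% of the measured genes and 13.4% on chromosome 3 against 19.9%. In the order of protein-coding genes in the RefSeq table, 4 pairs of members were next to each other: AT1G09500 and AT1G09510, AT2G32130 and AT2G32140, AT5G26280 and AT5G26290, and AT5G41740 and AT5G41750. No such count was made for other sets of measured genes, so no clustering is read from these pairs. Genes that did not meet the rule but lay within 2 genes of a member were measured in 193 cases. Their median ratio was -0.01, against 0.02 for the 8809 other genes that did not meet it. Of the 193, 38 were negative on all 4 arrays (19.7%), against 10.5% of the others, and 10 had a mean of -0.6 or less (5.18%), against 2.11%.

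The lowest of these neighbours were AT2G32150 at -0.91, 2 genes from AT2G32130, and AT3G59350 at -0.87, next to AT3G59340. AT3G47580, a receptor kinase gene next to its relative AT3G47570, was at -0.59, -1.12, -0.60 and -0.67. AT1G72920 and AT1G72950, TIR genes within 2 genes of AT1G72940 on either side, had means of -0.65 and -0.56. By contrast AT4G19520 and AT4G19500, which flank the TIR-NBS-LRR gene AT4G19510, were at -0.15 and 0.02, and AT3G20380, next to the MATH-domain gene AT3G20370, was at -0.26 with arrays of both signs. Whether related neighbours share signal through similar probes was not tested.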

How the data were processed

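Labelled targets were made from 5 µg of total RNA by linear amplification, per the labels' protocols. The authors deposited a log10 ratio for each probe on each array. The submitters' processing notes name Agilent Feature Extraction 7.1, without its background or dye settings, and no intensities or flags were used. Division by 0.30103 gave log2 ratios, and the sign of arrays 1 and 4 was reversed so that all read nai1-1 over Col-0. The values were not normalized further, and no 2 arrays were identical.

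Of 22575 probes, 9335 had 1 gene in the platform annotation, and 9317 of these matched the RefSeq table (TAIR10.1) by Entrez identifier. An exact 0 on any array removed 88 of the 9335 for the rule. limma 3.58.1 in R 4.3.3 (genotype and dye terms, all probes, two-sided, Benjamini-Hochberg at 0.05) gave the calls for the gene lists and the dye term. It was also run on simulated data without exact 0 values. That setting differs from the fit on all probes, so the run does not check that fit. Protein families come from general knowledge of the loci, since the gene table holds no product names, so a planned keyword grouping was replaced by a hand-made one. Promoter motifs were planned but no sequences were used here.

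Members, lists and groups were chosen with earlier results of these data known. Arrays were given for the 15 lowest members, the 2 lowest of each group, and genes with a point of their own. Genes nearest the threshold and with the widest and narrowest ranges were named by rule; others were named to account for the members, and neighbours after their values were seen. The number of arrays limits the precision.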

Additional observations from a re-analysis of the deposited data

Results flagged for a closer look

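Dixon's test set 1 array apart from the rest in 14 of 134 members (10.4%). The array set apart was array 1 for 7 genes, arrays 2 and 4 for 3 genes each and array 3 for 1 gene. The test's nominal rate is about 1 in 20 groups, and the same count over all single-gene probes was not made. The rule cuts off the members' values, the arrays differ in spread and the genes share the arrays. The nominal rate is therefore no fair background here, and no excess among the members is read from the 14.

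On array 1 the TIR-NBS-LRR genes AT5G41750 and AT5G58120 were at -0.73 and -0.92, against -2.02 to -1.84 and -1.72 to -1.59 on the other arrays. The U-box gene AT1G24330 was at -0.76 there (others -1.31 to -1.29), the MYB-like gene AT3G16350 at -0.74 (others -1.21 to -1.17) and AT3G51450 at -1.02 (others -1.17 to -1.15). Array 1 was instead the lowest array for AT4G01090 at -1.36 (others -1.05 to -1.0) and the AP2/ERF gene AT5G07580 at -1.0 (others -0.67 to -0.63).

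On array 2 the PHO1-like gene AT1G35350 was at -1.96 (others -1.23 to -1.15), the peroxidase gene AT5G19890 at -1.86 (others -1.15 to -1.03) and AT4G36500 at -1.01 (others -1.77 to -1.72). On array 3 AT2G05810 was at -1.18 (others -0.79 to -0.72). On array 4 AT4G30470 was at -1.49 (others -0.94 to -0.86), the germin-like gene AT3G05950 at -1.32 (others -0.85 to -0.76) and AT5G26770 at -1.01 (others -0.72 to -0.66).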

How the results depend on the processing

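The number of members was 134, with a median of -1.18. It was 71 with a threshold of -0.8 on every array (median -1.46) and 49 with -1 (median -1.56), 323 when the mean of 4 arrays had to reach -0.6 (median -0.89), and 242 with the mean of each dye orientation (median -1.0). Those changes follow from how strict each rule is. Scaling the arrays to 1 median absolute deviation gave 98 members, 86 of them among the 134 (median -1.39). A threshold of -0.5 gave 177 members and median centring 137. Keeping probes with an exact 0 gave the same 134. That outcome was fixed in advance, since a ratio of 0 cannot meet the rule. Leaving out 1 array gave 140 to 213 members, the most without array 1, with medians from -1.17 to -1.10. A rule on fewer arrays can only add members, so it was fixed in advance that all 134 stayed.

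The limma fit called 109 probes lower, 3 higher and 0 of the 9 measured genes of the rapid response list, 6 of which meet the rule's own values, so their calls test nothing new. Without exact 0 values it called 645, 133 and 8, and without the dye term 333, 61 and 3. Centring on the median of all probes and array weights left the counts at 109, 3 and 0, but say little: those medians were 0 on 3 arrays, and the weights were 0.982 or 1.02. Centring on the median of probes without an exact 0, an alternative chosen after seeing the data, shifted no array by more than 0.017 and called 383, 53 and 6, so these counts turn on how exact 0 values are treated. limma's prior degrees of freedom were 2.27 in the fit on all probes, 3.43 after this centring and 4.86 without exact 0 values. With 1 array left out, which leaves 1 residual degree of freedom, limma called 0 probes in each direction and 0 list genes, while 1001 to 1625 probes were lower and 543 to 1686 higher at an unadjusted p under 0.05. The cause of the changes under the dye term and the left-out arrays was not tested. The planned motif counts were not run because no promoter sequences were used here.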
